A study of Mus musculus with 19 samples.

Results

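A block of zinc finger genes and their neighbours on mouse chromosome 13 was examined in kidney and liver of male mice, some without the histone variant macroH2A1.1 and some wild type. Members were all genes of the deposited count table that start from 60 Mb to below 70 Mb of chromosome 13 (GRCm38, positions from GENCODE M21), without Fbp1. They numbered 145 of 26506 genes, 27 with a Zfp symbol and 118 others. The knockout (KO) mice, with the genotype mH2A1.1_KO, lacked the exon from which the macroH2A1.1 splice form of the gene H2afy is made, removed with soluble Cre enzyme in zygotes. Wild-type (WT) and homozygous knockout mice came from crosses of heterozygotes on a C57BL/6J background, reached by at least 10 generations of backcrossing. RNA came from homogenised whole tissue, with 5 KO and 5 WT kidneys and 5 KO and 4 WT livers, and was sequenced after poly(A) selection. The labels name a standard and a ketogenic diet without assigning either to a library, give no ages, and do not say whether a group's libraries came from separate animals. The window lies on the chromosome that carries the deleted exon, and its members start 3.96 to 13.7 Mb from the start of H2afy, so that linkage to the deleted site and loss of the protein cannot be told apart in this design.

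Genes of this kind encode proteins with rows of zinc fingers that bind DNA, and many of them carry a KRAB domain that recruits the corepressor Trim28 together with the histone methyltransferase Setdb1. They are best known for silencing transposable elements, and they arise by tandem duplication, which leaves near-copies side by side. In mouse liver the neighbours Rsl1 and Rsl2 of this block are known as repressors of male-biased genes such as C4a, Cyp2d9 and the major urinary protein (Mup) genes. RefSeq lists Rsl2 as another name of Zfp429.

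Zinc finger genes were a minority of the window, with at least 3 fingers encoded by 33 of the 145 members and not by 112. Of the 27 Zfp members, 26 encode a protein with at least 3 zinc fingers, and the 27 proteins hold 2 to 30 fingers with a median of 15. Zfp367 was the member with 2. At least 3 fingers were also found in 7 members without a Zfp symbol, namely Rsl1, Rslcan18, Gm28557, Gm3604, Gm5141, Gm49359 and Platr25. By position 23 of the 27 Zfp members start from 66 to 68 Mb. Of all 145 members 71 are annotated as protein coding.

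Near-copies limit what a count can say here. A median of 10.17% of the 50-base stretches of a Zfp member's transcripts also occur in transcripts of another gene, and for 9 of the 27 members the share exceeds 25%. For Zfp429 it is 25.04%, mostly with Rsl1, and for Zfp456 it is 65.47%, mostly with its antisense partner Gm17039. Zfp369 (2.26%), Zfp457 (7.96%) and Zfp874a (7.79%) share little. Of the members 95 overlap the body of another annotated gene, introns included, and 60 that of a gene on the opposite strand. Where exons of opposite-strand genes overlap, their reads cannot be told apart without a known strand setting.

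Promoter sequences are shown for 4 members to let the copies be compared with the unrelated neighbour. Zfp429 and Rsl1 are the repressor pair, Zfp457 is a zinc finger gene between them whose KO values were higher than WT, and Habp4 is the member with the smallest p in liver. Each runs 5′ to 3′ from 250 bases before to 50 bases after the RefSeq start on GRCm38.p6. Capitals mark matches to a CCAAT box (CCAAT) or a GC box (GGGCGG) on either strand. The positions are chr13:67399718-67400017 for Zfp429 and chr13:67306363-67306662 for Zfp457, both minus strand. They are chr13:67172932-67173231 for Rsl1 and chr13:64161616-64161915 for Habp4, both plus strand.
Zfp429: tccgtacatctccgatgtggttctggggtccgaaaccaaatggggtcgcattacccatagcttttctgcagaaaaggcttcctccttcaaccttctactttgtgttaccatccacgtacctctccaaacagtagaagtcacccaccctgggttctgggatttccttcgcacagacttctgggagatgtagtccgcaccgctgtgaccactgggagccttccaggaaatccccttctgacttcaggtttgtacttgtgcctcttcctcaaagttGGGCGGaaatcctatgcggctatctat
Rsl1: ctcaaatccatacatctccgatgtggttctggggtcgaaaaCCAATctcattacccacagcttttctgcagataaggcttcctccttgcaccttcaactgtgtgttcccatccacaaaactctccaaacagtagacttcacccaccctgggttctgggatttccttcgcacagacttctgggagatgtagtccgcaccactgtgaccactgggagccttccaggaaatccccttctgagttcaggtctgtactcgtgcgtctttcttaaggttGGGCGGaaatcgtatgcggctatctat
Zfp457: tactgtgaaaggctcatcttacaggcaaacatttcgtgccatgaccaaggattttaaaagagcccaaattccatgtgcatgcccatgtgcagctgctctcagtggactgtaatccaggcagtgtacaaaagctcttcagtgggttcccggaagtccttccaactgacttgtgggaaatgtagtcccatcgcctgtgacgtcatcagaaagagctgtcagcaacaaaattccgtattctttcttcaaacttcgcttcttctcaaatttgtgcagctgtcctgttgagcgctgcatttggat
Habp4: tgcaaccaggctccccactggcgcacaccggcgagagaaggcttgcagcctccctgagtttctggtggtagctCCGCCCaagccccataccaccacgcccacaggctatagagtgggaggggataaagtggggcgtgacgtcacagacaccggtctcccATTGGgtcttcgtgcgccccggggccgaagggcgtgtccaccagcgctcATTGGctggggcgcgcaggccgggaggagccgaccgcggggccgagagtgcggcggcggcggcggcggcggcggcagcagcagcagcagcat

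The Zfp429 and Rsl1 promoters were identical at 87.9% of aligned positions, and either was identical to that of Zfp457 at 55.7% to 58.2%. Against Habp4 the identity was 47.6% to 49.3%. The Habp4 promoter holds 29 CpG sites, while that of Zfp429 holds 10. RefSeq entries were found for 68 of the 145 members, among them 22 Zfp genes. A GC box stood in 16.7% of the 24 Zfp promoters, 33.3% of the 54 promoters of other members and 35.7% of all 32851 promoters. For a CCAAT box the shares were 29.2%, 37.0% and 37.4% in the same order, and for a TATA box (TATAAA, either strand) 8.33%, 11.1% and 13.6%. Zfp369 and Slc35d2 had no entry. These matches describe letters in a window and say nothing of binding.

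Libraries held 25919138 to 35131720 counts in kidney and 26084473 to 34806035 in liver, of which members took 0.124% to 0.168% and 0.145% to 0.176%. Levels are given as CPM, counts scaled to a common library size by TMM within a tissue. In bulk tissue, fewer cells of a type and less RNA per cell cannot be told apart. Kidney tubule and podocyte markers summed to 9480 to 11390 CPM in KO kidneys and 10270 to 12170 CPM in WT kidneys, and to at most 2.21 CPM in any liver. Of these 6 markers Slc34a1, the phosphate transporter of the proximal tubule, was lower in KO kidneys without overlap, at 4722 to 5053 CPM against 5517 to 6357 CPM in WT kidneys (log2 fold change -0.25, SE 0.08, edgeR adjusted p = 0.9995). Hepatocyte markers summed to 81330 to 107300 CPM in KO livers and 88900 to 91390 CPM in WT livers. In kidneys they summed to 132.5 to 161.9 CPM in KO and 100.2 to 161.7 CPM in WT. The 4 tested in kidney were all higher in KO, 0 of them at an unadjusted p under 0.05. Among these Alb was at 4.86 to 41.4 CPM in KO kidneys and 5.15 to 9.49 CPM in WT kidneys. Leukocyte markers summed to 47.8 to 72.2 CPM in KO kidneys, 55.9 to 73.5 CPM in WT kidneys, 52.8 to 77.0 CPM in KO livers and 70.2 to 99.0 CPM in WT livers. Among them Lyz2, the lysozyme of macrophages, was at 52.0 ± 9.09 CPM in KO livers (SD, n = 5) and 69.2 ± 11.9 CPM in WT livers (SD, n = 4; -0.41, SE 0.15, edgeR adjusted p = 0.9998). Adipocyte markers summed to 38.6 to 151 CPM in KO kidneys and 45.7 to 123 CPM in WT kidneys, with the hormone gene Lep at 0.222 to 1.17 CPM in KO and 0.492 to 2.17 CPM in WT kidneys (-1.44, SE 0.50, edgeR adjusted p = 0.9995). The targeted gene H2afy stood at 49.0 to 61.1 CPM in KO kidneys and at 82.4 to 90.8 CPM in WT kidneys other than the library labelled WT 24, which held 65.6 CPM. In liver it stood at 42.9 to 52.9 CPM in KO, at 74.6 to 86.4 CPM in WT, and at 53.5 CPM in the library labelled WT 24. In both tissues the library labelled WT 24 lay closer to the KO libraries than to the other WT libraries, but above every KO library. Its label is not settled by this level, and a count over the whole gene is not specific to the deleted exon. KO 16, at 54.4 CPM in kidney and 52.9 CPM in liver, lay within the KO range. KO kidney 16 carried adrenal cortex transcripts, with a marker sum of 198.8 CPM against at most 6.82 CPM in the other kidneys, and Cyp11b1, a defining adrenal enzyme, at 26.7 CPM against at most 0.0704 CPM. Skeletal muscle markers summed to 1.23 to 14.8 CPM in KO livers and to 1.24 to 2.71 CPM in WT livers, and 6 of 6 of them were higher in KO at an unadjusted p under 0.05, Ckm by 2.90, Myh4 by 2.19, Acta1 by 2.13, Pvalb by 2.04, Tnnt3 by 1.91 and Mylpf by 0.79 on the log2 scale, none with an adjusted p under 0.05. In kidney Acta1 was at 0.219 to 0.393 CPM in KO and 0.176 to 1.19 CPM in WT (-1.04, SE 0.45, edgeR adjusted p = 0.9995). The part of these transcripts in the members' differences was not tested.

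No member passed between KO and WT in either tissue, and the share of members at an unadjusted p under 0.05 was higher than that of all genes. The targeted gene H2afy did not pass in edgeR either. Its log2 fold change, KO over WT, was -0.58 (SE 0.10, edgeR adjusted p = 0.1355) in kidney. In liver that of H2afy was -0.61 (SE 0.13, edgeR adjusted p = 0.3843). In kidney 81 members could be tested, and 0 passed at an adjusted p under 0.05 in edgeR's quasi-likelihood test with Benjamini-Hochberg adjustment, where 0.00579% of all 17269 genes did. At an unadjusted p under 0.05 there were 21 members (25.9% of those tested), 8 higher and 13 lower in KO, against 2.95% of all genes (1.73% higher and 1.22% lower). In liver 60 members could be tested and 0 passed, as did 0.0% of all 14591 genes. At an unadjusted p under 0.05 there were 16 members (26.7%), 4 higher and 12 lower in KO, against 4.17% of all genes (2.08% higher and 2.09% lower). On the rest of chromosome 13 the shares were 3.10% of 580 genes in kidney and 3.81% of 472 in liver. DESeq2 called 5 members in kidney at an adjusted p under 0.05 (1810034E14Rik, F630042J09Rik, Zfp369, 9430065F17Rik and Slc35d2) and 6 in liver (Habp4, Zfp429, Zfp369, Slc35d2, Zfp874a and Zfp738). Limma voom called 2 in kidney (1810034E14Rik and Zfp429) and 1 in liver (Habp4). Over all genes, DESeq2 called 15 of 17269 in kidney and 42 of 14591 in liver, and limma voom 7 and 5.

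Zfp genes and other genes of the window both had shares above those of all genes, and the difference between them was not tested. In kidney 6 of 26 tested Zfp members (23.1%) and 15 of 55 other members (27.3%) had an unadjusted p under 0.05. In liver it was 7 of 23 Zfp members (30.4%) and 9 of 37 others (24.3%). The median log2 fold change, KO over WT, was 0.01 for Zfp members and -0.06 for other members in kidney, with 0.01 for all genes tested. With a filter of 1 CPM the kidney median of other members was 0.02. In liver it was -0.14 for Zfp members and -0.25 for other members, with 0.00 for all genes. These liver medians were unstable: the Zfp median lay between -0.29 (without WT 20) and -0.02 (without the library labelled WT 24) when 1 library was left out, with -0.27 without KO 14 and -0.03 without KO 15, and the median of other members was -0.09 with a filter of 1 CPM. Zfp members were 14 higher and 12 lower in KO kidneys, and 7 higher and 16 lower in KO livers. Zfp708 was too low to test in either tissue, and Zfp459, Zfp808 and Zfp934 also in liver.

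Along the window, most members at an unadjusted p under 0.05 start from 64 to 68 Mb. From 60 to 62 Mb 1 of 5 tested members had such a p in kidney and 1 of 3 in liver, and from 62 to 64 Mb 2 of 19 and 1 of 6. From 64 to 66 Mb it was 6 of 14 in kidney and 6 of 13 in liver. From 66 to 68 Mb it was 12 of 35 in kidney and 8 of 32 in liver. From 68 to 70 Mb it was 0 of 8 in kidney and 0 of 6 in liver.

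**Figure D1:**
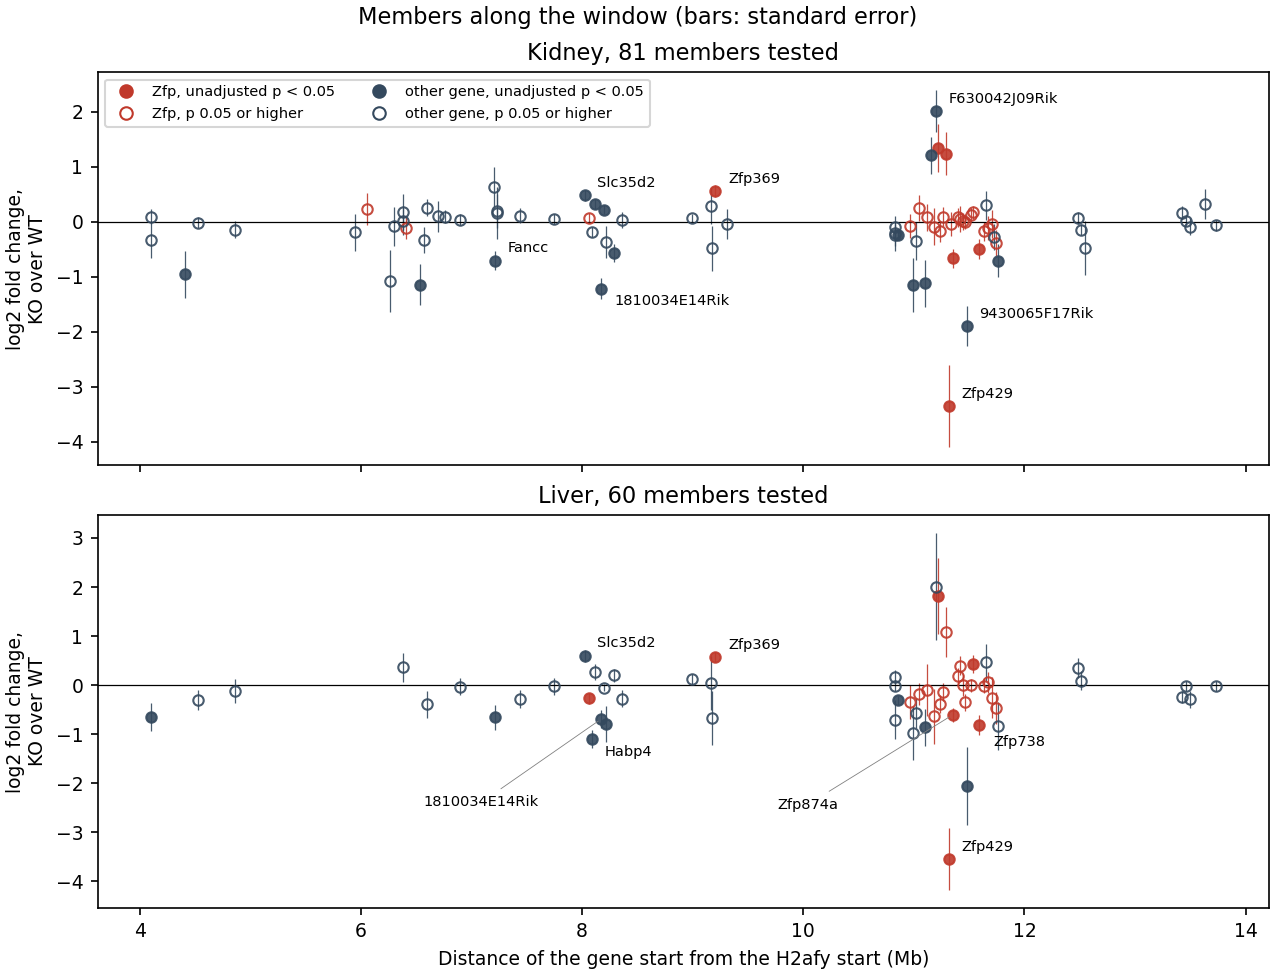
Log2 fold change, KO over WT, of each tested member (points, bars for the standard error) against the distance of its start from the H2afy start in Mb, with 81 members in kidney above and 60 in liver below. Filled points have an unadjusted p under 0.05, and Zfp429 lies lowest in both tissues at -3.35 and -3.55.

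Zfp429 (ENSMUSG00000078994, chromosome 13, 67387905 to 67399819, minus strand), the repressor also named Rsl2, had the lowest fold change, KO over WT, of the tested members. In kidney it held 0.0317, 0.0715, 0.0366, 0.899 and 0 CPM in KO libraries 13, 14, 15, 16 and 18. WT kidneys 19, 20, 22 and 23 held 1.60, 1.99, 2.04 and 3.08 CPM, and the library labelled WT 24 held 1.27 CPM. The groups did not overlap, KO kidney 16 stood far above the other KO kidneys, and these 4 held 0 to 2 counts each. The log2 fold change was -3.35 (SE 0.75, edgeR adjusted p = 0.659). Without library 16 it was -5.74 and passed (adjusted p = 0.000101), and the alternatives spanned adjusted p values of 0.000101 to 1.0.

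In liver Zfp429 held 0.0598, 0.0323, 0, 0.165 and 0.0351 CPM in KO libraries, in the same order. WT livers 19, 20 and 22 held 1.12, 0.334 and 0.575 CPM and the library labelled WT 24 held 0.813 CPM. Again no KO liver reached a WT liver, and KO liver 16 was the highest of its group. On the log2 scale the fold change was -3.55 (SE 0.63, edgeR adjusted p = 0.224), and -4.34 without library 16 (adjusted p = 0.0642, with 0.000711 to 0.957 over all alternatives). Its near-copy Rsl1 (chromosome 13, 67173182 to 67184044) was at 1.35 ± 0.786 CPM in KO kidneys and 2.90 ± 0.857 CPM in WT kidneys (SD, n = 5 each), with overlapping groups, and the log2 fold change was -1.12 (SE 0.43, edgeR adjusted p = 0.9995). In liver Rsl1 was at 1.16 ± 0.608 CPM in KO (SD, n = 5) and 2.11 ± 0.589 CPM in WT (SD, n = 4), and the log2 fold change was -0.86 (SE 0.38, edgeR adjusted p = 0.9998). KO kidney 18 held the lowest Rsl1 level of all kidneys, 0.151 CPM.

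Between these neighbours, Zfp457 and Zfp456 had higher KO values. Zfp457 (chromosome 13, 67288138 to 67306485, 18 fingers) held 2.28, 1.86, 2.05, 1.21 and 0.453 CPM in KO kidneys 13, 14, 15, 16 and 18. WT kidneys 19, 20, 22 and 23 held 0.188, 0.625, 0.563 and 0.533 CPM, and the library labelled WT 24 held 1.20 CPM. KO kidney 18 lay within the WT range, and the library labelled WT 24 nearly reached KO kidney 16. KO over WT, the log2 fold change was 1.35 (SE 0.44, edgeR adjusted p = 0.9995), and 1.78 without libraries 16 and 24 (adjusted p = 0.773, with none below 0.5 under any alternative). In liver it held 0.359, 0.420, 0.115, 0.560 and 0.703 CPM in KO, against 0.0885, 0, 0.0303 and, in the library labelled WT 24, 0.387 CPM in WT, and the log2 fold change was 1.82 (SE 0.78, edgeR adjusted p = 0.9998). Leaving out the library labelled WT 24 gave 3.26 (adjusted p = 0.581, with 0.517 to 1.0 over all alternatives).

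Zfp456 (chromosome 13, 67362113 to 67375810) lies next to Zfp429. It held 1.43, 1.54, 1.46, 1.09 and 0.393 CPM in KO kidneys and 0.376, 0.512, 0.633, 0.207 and, in the library labelled WT 24, 0.784 CPM in WT kidneys. Here too KO kidney 18 alone lay among the WT values. The log2 fold change was 1.24 (SE 0.39, edgeR adjusted p = 0.9995) in kidney and 1.08 (SE 0.51, adjusted p = 0.9998) in liver, where it was 1.81 without the library labelled WT 24 (adjusted p = 0.585, with 0.181 to 1.0 over all alternatives). Its shared sequence with Gm17039 leaves the source of these reads uncertain. The noncoding gene F630042J09Rik, which lies just before Zfp457 and shares no 50-base stretch with another gene, was at 1.58, 1.32, 1.32, 0.469 and 1.66 CPM in KO kidneys. WT kidneys held 0.219, 0.171, 0.317 and 0.326 CPM and the library labelled WT 24 held 0.560 CPM. All KO kidneys but 16 exceeded every WT kidney, at a log2 fold change, KO over WT, of 2.02 (SE 0.38, edgeR adjusted p = 0.166), and of 2.22 without library 16, where it passed (adjusted p = 0.0192, with 0.00138 to 1.0 over all alternatives). In liver it held 0.0989 to 1.29 CPM in KO, against 0 CPM in WT 19, 20 and 22 and 0.580 CPM in the library labelled WT 24 (2.00, SE 1.09, edgeR adjusted p = 0.9998).

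KO kidney 18 stood apart on the Zfp members as a group. The median over 26 Zfp members of log2(CPM + 0.1), centred on each gene's mean, was -0.59 in that library and lay between -0.11 and 0.28 in the other kidneys. Over the 55 other members it was -0.01, within the range of the other kidneys (-0.09 to 0.13). In liver no library showed such a value for Zfp members, with a range of -0.22 to 0.32.

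Zfp369 (ENSMUSG00000021514, chromosome 13, 65278814 to 65304221, plus strand), also named NRIF2 after its likeness to a factor that binds a neurotrophin receptor, had higher KO values in both tissues. KO kidneys 13, 14, 15, 16 and 18 held 19.5, 18.4, 18.4, 15.8 and 17.5 CPM. WT kidneys 19, 20, 22 and 23 held 11.9, 10.4, 12.7 and 11.0 CPM, and the library labelled WT 24 held 14.7 CPM. KO livers held 9.81, 9.91, 9.78, 8.70 and 9.46 CPM, against 6.46, 6.35, 6.66 and, in the library labelled WT 24, 6.15 CPM in WT livers. The groups did not overlap in either tissue, and in kidney the lowest KO and the highest WT library were those numbered 16 and 24. On the log2 scale the fold change was 0.56 (SE 0.11, edgeR adjusted p = 0.182) in kidney and 0.57 (SE 0.11, adjusted p = 0.224) in liver. Without libraries 16 and 24 it was 0.68 in kidney, where it passed (adjusted p = 0.0418), and 0.58 in liver (adjusted p = 0.296). Under the alternatives tried, adjusted p values spanned 0.00199 to 0.696 (kidney) and 0.00083 to 0.957 (liver).

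Zfp874a and Zfp738, both of the 66 to 68 Mb stretch, had lower KO values in both tissues. Zfp874a held 11.9, 9.91, 11.8, 13.99 and 6.04 CPM in KO kidneys, against 16.8, 16.8, 18.5, 18.7 and, in the library labelled WT 24, 13.7 CPM in WT kidneys. Only KO kidney 16 and the library labelled WT 24 crossed over. In liver it held 10.2, 11.7, 10.7, 16.2 and 10.4 CPM in KO and 17.9, 19.2, 16.5 and 18.5 CPM in WT, without overlap, and KO liver 16 again lay nearest to WT. KO over WT, the log2 fold change was -0.66 (SE 0.17, edgeR adjusted p = 0.9995) in kidney and -0.61 (SE 0.14, adjusted p = 0.524) in liver, where it passed without library 16 (-0.75, adjusted p = 0.0467, with 0.0458 to 1.0 over all alternatives). Zfp874b, its neighbour and the gene with which it shares most 50-base stretches, had log2 fold changes of 0.09 in kidney and 0.18 in liver.

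Zfp738 was at 12.6 ± 3.53 CPM in KO kidneys and 17.7 ± 3.34 CPM in WT kidneys (SD, n = 5 each), with overlap, and the log2 fold change was -0.49 (SE 0.18, edgeR adjusted p = 0.9995). In liver KO libraries held 4.22, 3.81, 3.81, 4.91 and 2.25 CPM and WT libraries 6.99, 7.56, 6.81 and 5.42 CPM, the last in the library labelled WT 24. The liver groups did not overlap, and the log2 fold change was -0.82 (SE 0.20, edgeR adjusted p = 0.596). Zfp367 (-0.27, SE 0.11) and Zfp729a (0.42, SE 0.18) reached an unadjusted p under 0.05 in liver alone, both with adjusted p = 0.9998 in edgeR, and their kidney values were 0.08 and 0.17.

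**Figure D2:**
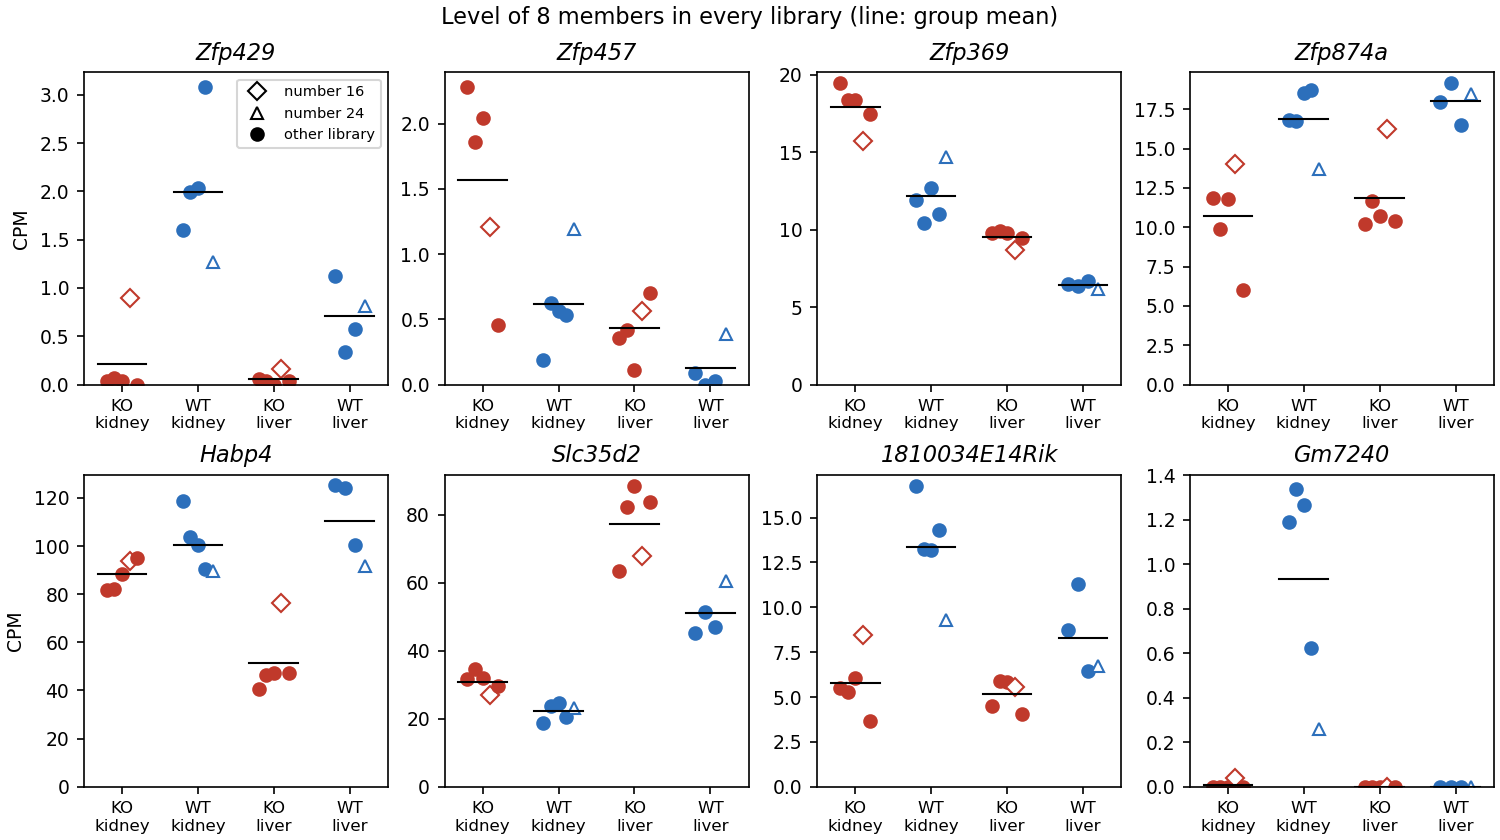
CPM of 8 members in every library, with KO left of WT within each tissue, the group mean as a line, library 16 as a diamond and the library labelled WT 24 as a triangle. For Zfp429 and Zfp369 in both tissues, Habp4 in liver and 1810034E14Rik in kidney the diamond is the KO point nearest to WT. The triangle is the WT point nearest to KO for Zfp429, Zfp369 and 1810034E14Rik in kidney and Habp4 in liver. It is not so for Zfp429 and Zfp369 in liver, and for 1810034E14Rik in liver neither point is.

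Among the other members, Slc35d2 (ENSMUSG00000033114, chromosome 13, 64096308 to 64129368, minus strand), a transporter of nucleotide sugars into the Golgi, had higher KO values. KO kidneys held 31.6, 34.6, 31.9, 27.1 and 29.5 CPM, against 18.9, 23.6, 24.6, 20.5 and, in the library labelled WT 24, 23.2 CPM in WT kidneys. KO livers held 63.5, 82.2, 88.4, 68.0 and 83.9 CPM, against 45.1, 51.3, 46.9 and, in the library labelled WT 24, 60.7 CPM in WT livers. No KO library reached down to a WT library of its tissue. The log2 fold change was 0.48 (SE 0.10, edgeR adjusted p = 0.233) in kidney and 0.60 (SE 0.13, adjusted p = 0.368) in liver. DESeq2 called it in kidney (adjusted p = 0.00785, the lowest of alternatives that reached 0.715) and in liver (adjusted p = 0.0115, with alternatives up to 0.998), and the fit of all libraries together called it in liver.

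Habp4 (ENSMUSG00000021476, chromosome 13, 64161824 to 64186537, plus strand), an intracellular RNA-binding protein, had lower KO values in liver. KO livers 13, 14, 15, 16 and 18 held 40.5, 46.3, 47.1, 76.5 and 47.1 CPM, against 125.5, 124, 100.4 and, in the library labelled WT 24, 91.7 CPM in WT livers. KO liver 16 was the highest of its group and WT 24 the lowest of its own, and the groups did not overlap. On the log2 scale the fold change was -1.10 (SE 0.18, edgeR adjusted p = 0.169), and without library 16 it was -1.29 and passed (adjusted p = 0.00282, with 1.9e-05 to 0.714 over all alternatives). In kidney Habp4 was at 88.2 ± 6.33 CPM in KO and 101 ± 11.9 CPM in WT (SD, n = 5 each), and the log2 fold change was -0.19 (SE 0.09, edgeR adjusted p = 0.9995). The effect in liver minus that in kidney was -0.91 (SE 0.20, edgeR adjusted p = 0.668), and it passed without library 16 (-1.07, adjusted p = 0.00964, with values up to 1.0 under other alternatives).

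The antisense gene 1810034E14Rik (ENSMUSG00000097101, chromosome 13, 64248700 to 64271852, plus strand) lies inside the body of Cdc14b on the other strand and shares no 50-base exon stretch with another gene. KO kidneys held 5.48, 5.26, 6.07, 8.44 and 3.65 CPM, against 16.8, 13.2, 13.2, 14.3 and, in the library labelled WT 24, 9.30 CPM in WT kidneys. KO livers held 4.49, 5.88, 5.82, 5.54 and 4.08 CPM, against 8.76, 11.3, 6.45 and, in the library labelled WT 24, 6.73 CPM in WT livers. The groups stayed apart in both tissues. KO over WT, the log2 fold change was -1.22 (SE 0.19, edgeR adjusted p = 0.131) in kidney, the smallest adjusted p of any member there, and -0.69 (SE 0.19, adjusted p = 0.725) in liver. In kidney it passed without library 16 (-1.39, adjusted p = 0.00587) and without the library labelled WT 24 (-1.32, adjusted p = 0.0138). Its kidney values spanned 7.12e-06 to 0.438 in adjusted p under the alternatives tried. Cdc14b itself, a protein phosphatase gene, was at 31.4 ± 4.19 CPM in KO kidneys and 25.04 ± 1.19 CPM in WT kidneys (SD, n = 5 each), without overlap and in the other direction (0.33, SE 0.10, edgeR adjusted p = 0.9995).

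A second antisense gene, 9430065F17Rik, held 0.158, 0.429, 0.183, 0.352 and 0.272 CPM in KO kidneys, against 0.939, 1.65, 1.13, 0.859 and, in the library labelled WT 24, 0.598 CPM in WT kidneys. The kidney groups did not overlap (-1.89, SE 0.36, edgeR adjusted p = 0.166). In liver KO libraries held 0, 0.0323, 0.0573, 0.330 and 0 CPM and WT libraries 0.502, 0.201, 0.363 and 0.348 CPM, with KO liver 16 among the WT values (-2.05, SE 0.79, adjusted p = 0.9998). Of its 50-base stretches 22.57% occur in another gene, mostly Zfp748, the gene it overlaps, which differed by 0.00 in kidney and -0.35 in liver.

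Fancc, a component of the Fanconi anaemia DNA repair complex, was at 6.45 ± 1.56 CPM in KO kidneys and 10.51 ± 1.69 CPM in WT kidneys (SD, n = 5 each; log2 fold change -0.70, SE 0.17, edgeR adjusted p = 0.659). In liver it was at 3.49 ± 1.20 CPM in KO (SD, n = 5) and 5.47 ± 1.36 CPM in WT (SD, n = 4; -0.65, SE 0.26, edgeR adjusted p = 0.9998). Its groups overlapped in both tissues. Ptdss1, which makes phosphatidylserine, was at 51.9 ± 3.13 CPM in KO kidneys and 60.8 ± 3.36 CPM in WT kidneys (SD, n = 5 each; -0.23, SE 0.08, edgeR adjusted p = 0.9995). In liver it was at 32.1 ± 2.54 CPM in KO (SD, n = 5) and 39.6 ± 2.38 CPM in WT (SD, n = 4; -0.30, SE 0.09, edgeR adjusted p = 0.915). The Ptdss1 groups did not overlap in either tissue. The noncoding gene Gm49064, at 1.501 ± 0.530 CPM in KO kidneys and 0.655 ± 0.339 CPM in WT kidneys (SD, n = 5 each), overlapped between groups (1.21, SE 0.34, edgeR adjusted p = 0.9995).

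Non-overlap of all KO and all WT libraries was seen for 9 of the 81 tested members in kidney, 4 higher and 5 lower, where 0.562% of all genes tested had it (0.29% higher and 0.272% lower). In liver it was seen for 8 of 60, 2 higher and 6 lower, where 1.56% of all genes had it (0.795% higher and 0.761% lower). Slc35d2, Zfp369, Zfp429, 1810034E14Rik and Ptdss1 had it in both tissues.

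**Figure D3:**
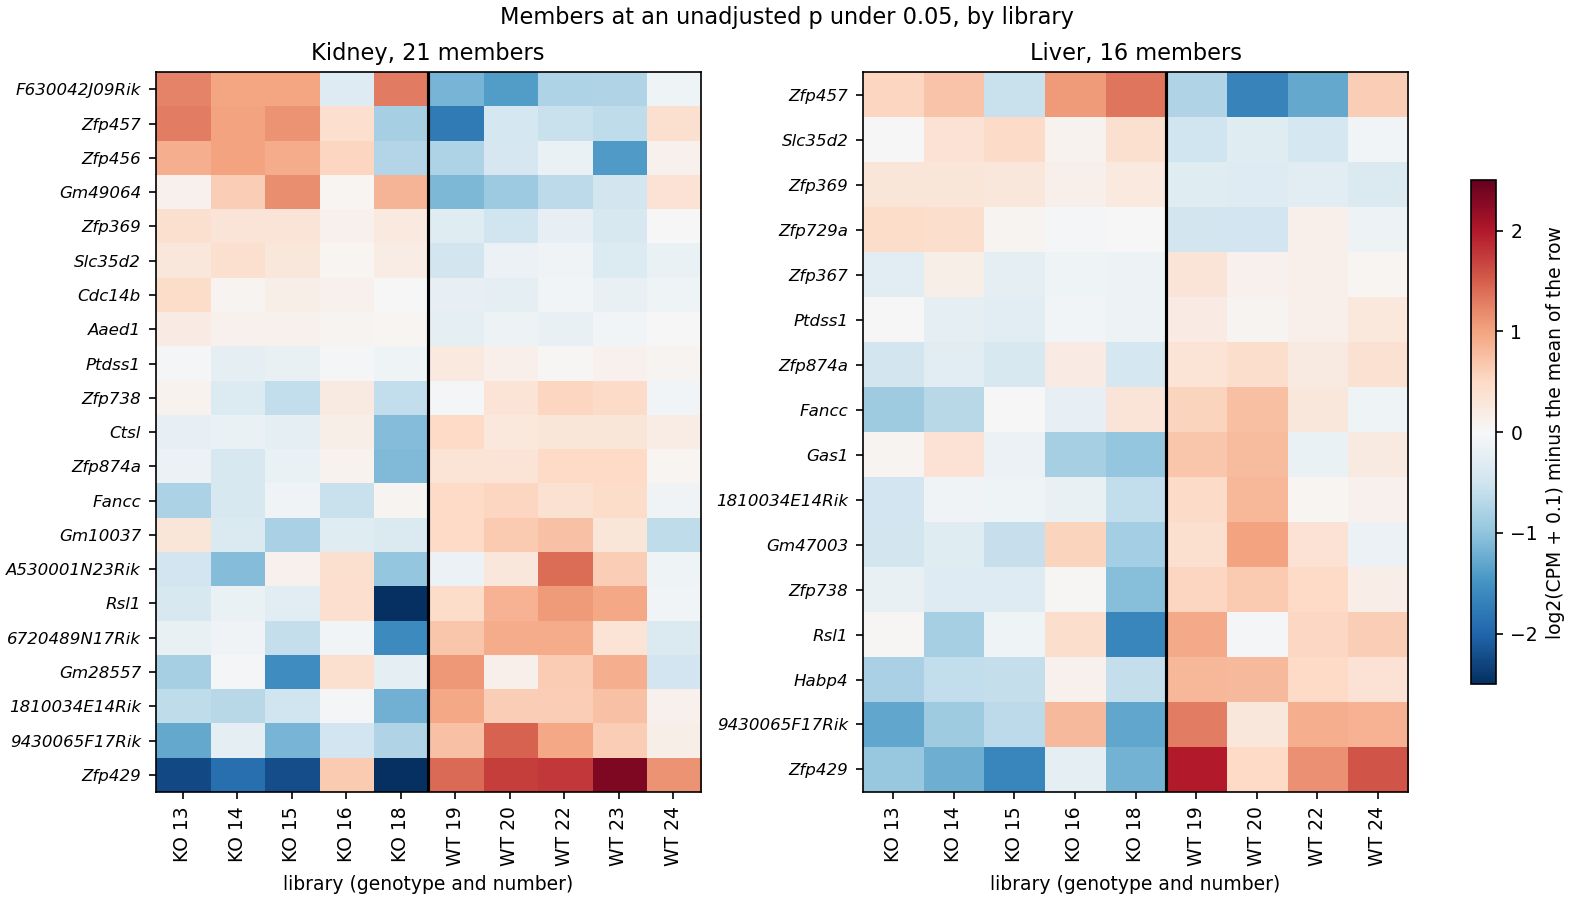
Members at an unadjusted p under 0.05 (21 in kidney, 16 in liver) in rows and libraries in columns, KO left of the black line and WT right of it, with log2(CPM + 0.1) minus the row mean as colour. In 14 of the 21 kidney rows KO 16 is the KO library nearest to WT, and in 17 the library labelled WT 24 is the WT library nearest to KO.

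Of the 64 members below the filter in kidney, 3 separated fully between KO and WT. The share of all genes below the filter that did so was not computed, so this count has no background beside it. Gm7240 (chromosome 13, 61804257 to 61861675), a transcribed pseudogene, had 0, 0, 0, 1 and 0 counts in KO kidneys 13, 14, 15, 16 and 18 and 38, 47, 36, 21 and, in the library labelled WT 24, 7 counts in WT kidneys. The 1 KO count against 149 WT counts gave a ratio of KO to WT of 0.00732, with an exact 95% interval of 0.000184 to 0.0414 that covers counting error alone. It passed in edgeR when no filter was used and when all 19 libraries were fitted together. With library 13, 14, 15, 16, 18 or 24 left out it also passed in kidney, as it did without both 16 and 24. Gm7240 had 0 counts in all 9 livers. Gm48500 had 1 count in KO and 32 in WT kidneys (ratio 0.0341, interval 0.000837 to 0.204). Gm48732, which lies in the zinc finger stretch, had 71 counts in KO and 25 in WT kidneys (ratio 3.10, interval 1.94 to 5.10).

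Kidney and liver showed the same direction for 40 of the 60 members tested in both (66.7%), 14 higher and 26 lower in KO in both tissues. Over all 13847 genes tested in both it was 54.6%. The 2 comparisons share no library, but libraries with the same number may come from the same mouse, which the labels do not say. An unadjusted p under 0.05 in both tissues was found for 11 members, and all 11 had the same direction. Slc35d2, Zfp369 and Zfp457 were higher in KO, and 1810034E14Rik, 9430065F17Rik, Fancc, Ptdss1, Rsl1, Zfp429, Zfp738 and Zfp874a were lower. Over all genes 60 met this in both tissues, and 56 of them (93.3%) had the same direction.

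**Figure D4:**
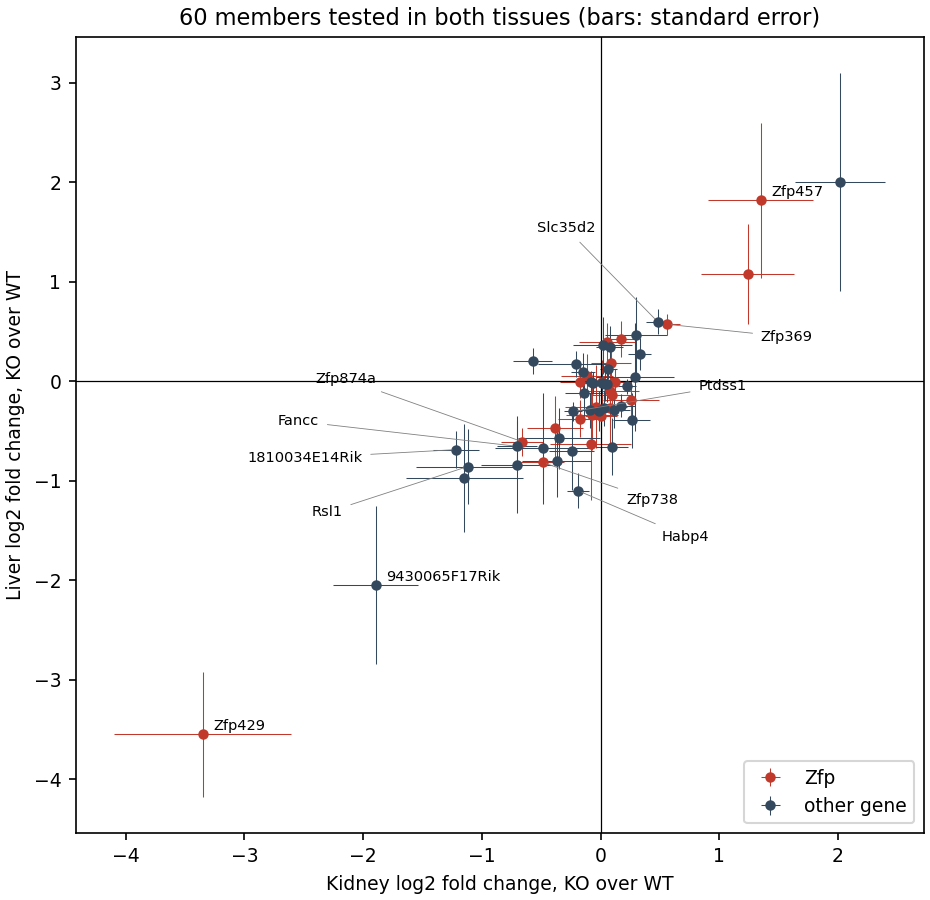
Log2 fold change, KO over WT, in liver (y axis) against kidney (x axis) for the 60 members tested in both tissues, with standard errors as bars and Zfp members in red. Zfp429 lies at the lower left, F630042J09Rik and Zfp457 at the upper right, and Habp4 below the other members near its kidney value of -0.19.

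Whether the knockout effect differed by tissue, as liver minus kidney, was tested for 89 members in 1 fit of all 19 libraries, and 0 passed in edgeR, as did 0.0% of all 18549 genes. At an unadjusted p under 0.05 there were 9 members, 2 higher and 7 lower, or 10.1% against 4.12% of all genes (1.85% higher and 2.28% lower). DESeq2 called 1 member, Habp4, and limma voom 0, where they called 11 and 1 of all 18549 genes. After Habp4 the smallest p belonged to Ctsl, a lysosomal protease, with a difference of 0.77 (SE 0.23, edgeR adjusted p = 0.840). Ctsl was at 322, 330.4, 319, 413 and 176 CPM in KO kidneys against 421 to 526.3 CPM in WT kidneys, without overlap, and at 744 ± 91.0 CPM in KO livers (SD, n = 5) against 647 ± 98.6 CPM in WT livers (SD, n = 4). KO kidney 18 was the lowest and KO kidney 16 the nearest to WT. Zfp459 differed by 2.71 (SE 0.87, adjusted p = 0.914), but with 1 to 7 counts in KO livers and 0 to 2 in WT livers the size is uncertain, and it was 5.47 without the library labelled WT 24 (adjusted p = 0.743, with 0.65 to 1.0 over all alternatives). Aaed1, which encodes a peroxiredoxin-like protein, was at 67.2 ± 2.94 CPM in KO kidneys and 57.5 ± 3.76 CPM in WT kidneys (SD, n = 5 each), without overlap, and at 65.5 ± 2.58 CPM in KO livers (SD, n = 5) and 67.9 ± 2.09 CPM in WT livers (SD, n = 4). Its difference was -0.27 (SE 0.10) and that of Zfp367 -0.34 (SE 0.14), both with edgeR adjusted p = 0.9999.

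Libraries 16 and 24 lay between the groups on these genes. Of the 21 kidney members at an unadjusted p under 0.05, KO kidney 16 was the KO library nearest to WT for 14 and the library labelled WT 24 the WT library nearest to KO for 17, while any other kidney was so for at most 5. In liver, over 16 members, the counts were 9 for KO 16 and 7 for the library labelled WT 24, and at most 5 for any other. Each library was also placed on a scale from 0, the mean of the other KO libraries, to 1, the mean of the other WT libraries, over members picked at an unadjusted p under 0.05 in the other tissue and at least 0.5 apart in log2. KO kidney 16 had a median position of 0.488 and the library labelled WT 24 of 0.438, with -0.23 to 0.0144 for the other KO kidneys and 1.003 to 1.23 for the other WT kidneys. In liver KO 16 stood at 0.370 and the library labelled WT 24 at 0.556, with -0.35 to 0.0491 for the other KO and 1.01 to 1.40 for the other WT livers. These medians rest on 8 to 10 members per kidney library and 13 or 14 per liver library, a set that varied with the library placed. The order of the libraries was seen in both tissues, and its cause was not tested.

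Libraries 16 and 24 stood out on these same members, so a wider gap without them was partly fixed by that choice. This holds for every member result given without either of them, and such results are no separate support. Without both libraries, edgeR called 5 members in kidney (Zfp429, 1810034E14Rik, Gm7240, F630042J09Rik and Zfp369) and 1 in liver (Habp4). Of all genes it then called 12 of 17521 in kidney and 11 of 14841 in liver. At an unadjusted p under 0.05 there were then 25 members in kidney, 8 higher and 17 lower, and 22 in liver, 7 higher and 15 lower. Over all genes it was 524 of 17521 in kidney and 668 of 14841 in liver. Without library 16 alone 4 members were called in kidney and 2 in liver. Without the library labelled WT 24 alone 2 members were called in kidney and 0 in liver. Over all genes the calls were 10 in kidney and 7 in liver without library 16, and 7 and 5 without the library labelled WT 24. The median over Zfp members in liver, -0.14 with all libraries, was 0.02 without both.

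The known targets of the Rsl repressors did not pass in either tissue. Of 16 listed genes 14 were in the table, and 12 were tested in liver, with 1 higher and 11 lower in KO and 0 at an unadjusted p under 0.05. Cyp2d9, a male-biased cytochrome P450, was at 1932 ± 193 CPM in KO livers (SD, n = 5) and 1967 ± 104 CPM in WT livers (SD, n = 4), and the log2 fold change was -0.03 (SE 0.10, edgeR adjusted p = 0.9998). In kidney 4 were tested, 3 higher and 1 lower. Among the higher was Mup3, at 0.0366 to 6.30 CPM in KO kidneys and 0.261 to 0.501 CPM in WT kidneys (2.03, SE 1.10, edgeR adjusted p = 0.9995). The part of liver transcripts in these kidney values was not tested. C4a, which encodes the sex-limited form of complement C4, had the smallest p in kidney. It was at 8.40 ± 2.19 CPM in KO kidneys and 3.22 ± 2.13 CPM in WT kidneys (SD, n = 5 each), and the log2 fold change was 1.40 (SE 0.38, edgeR adjusted p = 0.9995). With the library labelled WT 24 left out, whose 6.68 CPM was the highest of the WT kidneys, it was 1.84 and passed (adjusted p = 0.0350, with 0.00932 to 1.0 over all alternatives). In liver C4a differed by 0.21 (SE 0.37, adjusted p = 0.9998). C4a and C4b are near-identical and may exchange reads.

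Of 11 other male-biased liver genes, all tested in liver, 4 were higher and 7 lower in KO, and 0 passed. Cyp4a12b, a cytochrome P450, was at 41.6 ± 9.44 CPM in KO livers (SD, n = 5) and 59.7 ± 8.27 CPM in WT livers (SD, n = 4; -0.52, SE 0.16, edgeR adjusted p = 0.934). Slco1a1, an organic anion transporter, was at 472 ± 25.6 CPM in KO livers (SD, n = 5) and 400 ± 14.3 CPM in WT livers (SD, n = 4; 0.24, SE 0.09, edgeR adjusted p = 0.9998). In kidney 9 were tested, 4 higher and 5 lower, with 0 at an unadjusted p under 0.05.

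The corepressor machinery that KRAB zinc fingers recruit, a list of 16 genes, had 12 higher and 4 lower in KO kidneys and 5 higher and 11 lower in KO livers, with 0 passing. Trim28 was at 106 ± 24.2 CPM in KO kidneys and 94.6 ± 11.7 CPM in WT kidneys (SD, n = 5 each; 0.17, SE 0.13, edgeR adjusted p = 0.9995), and its liver difference was 0.05 (SE 0.10, adjusted p = 0.9998). Morc3, a chromatin ATPase, was the 1 gene of the list at an unadjusted p under 0.05, in kidney (0.24, SE 0.10, adjusted p = 0.9995).

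Between wild-type tissues, the share of members that passed was below that of all genes, a difference that was not tested. Between WT kidneys and WT livers 47 of 83 tested members (56.6%) passed in edgeR, 26 higher and 21 lower in kidney, where 75.4% of all 17428 genes did (41.6% higher and 33.9% lower). Of the Zfp members 11 of 26 passed (42.3%), 5 higher and 6 lower in kidney. The direction depends on the scaling: relative to library totals the median log2 ratio of all genes moved from 0.14 to 1.02. Of the 83 tested members 68 were then called, 61 higher and 7 lower in kidney, where 14871 of all 17428 genes were called. Levels in this comparison are scaled jointly over both tissues.

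The largest called ratios were those of Fbp2, a fructose bisphosphatase known from muscle, at 11.5 ± 1.82 CPM in WT kidneys (SD, n = 5) and 0.148 ± 0.0858 CPM in WT livers (SD, n = 4; log2 ratio 6.23, SE 0.28, edgeR adjusted p = 2.8e-11), and of the noncoding genes Gm7240 and Gm19792. Gm7240 had 149 counts and Gm19792 121 counts over the WT kidneys and 0 in the WT livers. Against a floor of 3 counts over the WT liver group, they were at least 20.8-fold and at least 16.9-fold higher in kidney. Lower in kidney were Srd5a1, a steroid reductase, at 20.5 ± 5.25 CPM in WT kidneys (SD, n = 5) and 142 ± 28.2 CPM in WT livers (SD, n = 4; -2.79, SE 0.20, edgeR adjusted p = 1.58e-07), Slc35d2 (-2.11, SE 0.11, adjusted p = 1.45e-10) and the antisense gene Gm47003 (-1.74, SE 0.30, adjusted p = 9.51e-05). These 3 kept their direction with library totals.

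Per kb of exon, Zfp367 was the most abundant Zfp member in WT kidneys, at 4.65 ± 0.356 CPM per kb (SD, n = 5), ahead of Zfp874a (1.89 ± 0.234), Zfp65 (1.70 ± 0.13) and Zfp874b (1.47 ± 0.185). Zfp874a and Zfp65 overlapped within 1 SD, as did Zfp65 and Zfp874b. In WT livers Zfp367 stood at 4.46 ± 0.423 CPM per kb (SD, n = 4) and Zfp874a at 3.78 ± 0.258, ahead of Zfp87 (1.75 ± 0.492) and Zfp729b (1.71 ± 0.199). Zfp429, at 0.648 ± 0.225 in WT kidneys and 0.432 ± 0.205 in WT livers, belonged to the middle of the range. Zfp457, at 0.139 ± 0.081 and 0.0526 ± 0.0736, and Zfp456, at 0.0817 ± 0.0364 and 0.135 ± 0.113, belonged to its low end. Zfp459 differed most between tissues among Zfp members (log2 ratio 4.97, SE 0.64, edgeR adjusted p = 5.57e-06, from 2 counts over the WT livers), followed by Zfp808 (2.93, SE 0.54) and Zfp934 (2.79, SE 0.33). Zfp729a and Zfp738 were also called higher in kidney, and Zfp455, Zfp595, Zfp953, Zfp874a, Zfp58 and Zfp729b lower.

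**Figure D5:**
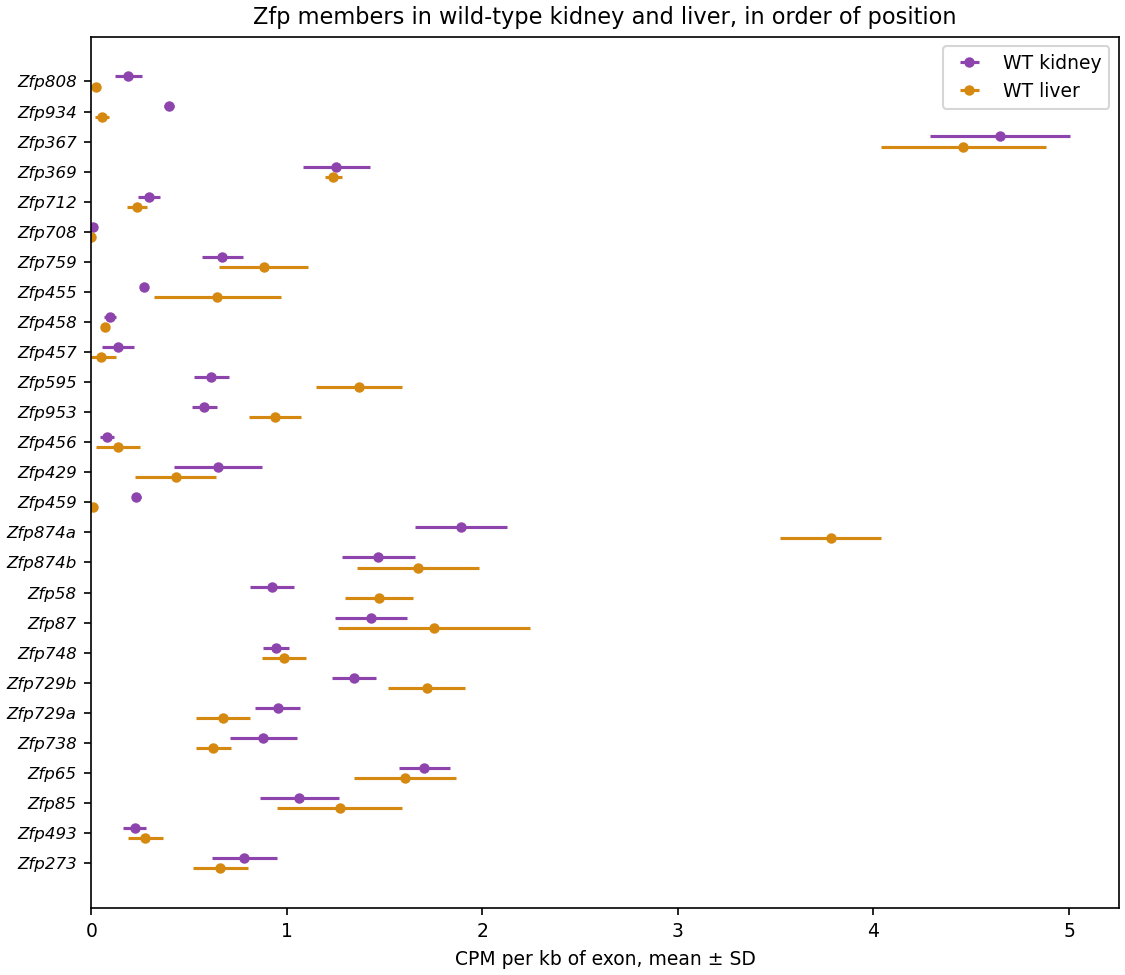
CPM per kb of exon of the 27 Zfp members in WT kidneys (purple, n = 5) and WT livers (orange, n = 4), mean ± SD, listed from top to bottom by position. Zfp367 leads in both tissues, at 4.65 and 4.46, and Zfp808, Zfp934 and Zfp459 are near 0 in liver.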

How the data were processed

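Poly(A) RNA of whole kidney and liver was measured in 19 libraries, grouped by the genotype and tissue in the labels. The authors deposited 1 table of unnormalized counts by gene; per the submitters' processing notes, Trim Galore, STAR, featureCounts and DESeq2 were used with the build GRCm38. Versions, annotation release, strand setting and the treatment of reads with several matches were not given in the sources used here. Every gene in the table has at least 10 counts in all. No liver library numbered 23 was analysed here. Nothing says that libraries of a group are separate animals, and p-values therefore speak only of the spread among these libraries, which may be technical.

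Of 26506 identifiers 26417 were matched without version to GENCODE M21. Each tissue was fitted over all its genes with edgeR 4.0.16 in R 4.3.3 (robust quasi-likelihood test, TMM, filterByExpr with a minimum count of 10, two-sided), with Benjamini-Hochberg adjustment over all genes and a threshold of 0.05. The difference between tissues used 1 mean per group over all libraries. The standard error was derived from the F statistic; the median over tested members was 0.22 in kidney and 0.20 in liver. Positions of libraries used a pseudocount of 0.1. Intervals of ratios of summed counts are exact at 95% and, like the floor of 3 counts, cover counting error only. Shared sequence was counted over 50-base stretches of GENCODE transcripts on both strands, and zinc fingers by translation of the annotated coding sequences. Promoters came from RefSeq. Alternatives were DESeq2 1.42.0, limma 3.58.1 voom with sample weights, other scalings and filters, 1 fit of all libraries, the library number as a block, and leaving out libraries. The fits were tested on simulated data.

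The members, the lists and the tests were chosen with earlier results of these data known. Named were Zfp369, Zfp429, Habp4 and Slc35d2; per tissue the members past the threshold and the 10 with the smallest p; the 5 with the smallest p for the difference between tissues; Zfp members at an unadjusted p under 0.05 in either tissue; untested members whose groups do not overlap; the 3 largest called differences between wild-type tissues in each direction; and Trim28, C4a, Cyp2d9 and list genes at an unadjusted p under 0.05. Rsl1, Zfp748, Zfp874b and the members named for their level, their zinc fingers or for missing the filter were named after their values were seen.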

Additional observations from a re-analysis of the deposited data

Results flagged for a closer look

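In 93 groups of 4 or 5 libraries, taken over the members named above, the highest or lowest library was compared with the rest of its group, and 14 stood further from its nearest neighbour than Dixon's 95% limit allows. Chance alone gives about 1 in 20 groups of continuous values. This rate does not apply to 4 of the 14 (Gm7240, Gm48500, Gm19792 and Zfp459), where every other library of the group held 0 and 1 or a few counts suffice. Of the remaining 10, 8 belong to library 16 or the library labelled WT 24. Library 16 accounts for 7 of the 14. In KO kidney it held 0.899 CPM of Zfp429 (other KO kidneys 0 to 0.0715), 0.469 CPM of F630042J09Rik (1.32 to 1.66) and 0.0391 CPM of Gm7240 (all others 0). In KO liver it held 76.5 CPM of Habp4 (other KO livers 40.5 to 47.1), 16.2 CPM of Zfp874a (10.2 to 11.7), 0.330 CPM of 9430065F17Rik (0 to 0.0573) and 1.19 CPM of Gm47003 (0.387 to 0.613). The library labelled WT 24 accounts for 3, with 7.58 CPM of Fancc in kidney (other WT kidneys 10.6 to 11.7), 1.01 CPM of Zfp456 in liver (other WT livers 0.236 to 0.272) and 0.0774 CPM of Zfp459 in liver (all others 0). The value lay towards the other genotype each time, but for Gm7240 and Zfp459, with 0 in the rest of the group, no other direction was possible.

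The remaining 4 came from other KO libraries. KO kidney 13 held 38.7 CPM of Cdc14b (others 28.1 to 31.0) and KO kidney 18 held 30.7 CPM of Srd5a1 (others 23.7 to 25.1). KO liver 14 held 0.0969 CPM of Gm19792 and KO kidney 14 held 0.0358 CPM of Gm48500, with 0 in the rest of each group.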

How the results depend on the processing

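No member named for a knockout comparison changed direction under any alternative that could be run. The count of called members in kidney, 0 in edgeR, was 5 with DESeq2, 2 with limma voom and 2 with no filter. It was 2 with all libraries in 1 fit, 0 to 4 with each library left out and 5 without libraries 16 and 24. Each of these counts above 0 includes Gm7240, which the main filter left out. Without library 13, 14, 15 or 18 it was the only member called. Over all genes the kidney count, 1 in edgeR, was 15 with DESeq2, 7 with limma voom and 4 with no filter. It was 3 with all libraries in 1 fit, 1 to 10 with each left out and 12 without libraries 16 and 24. In liver the called members, also 0 in edgeR, numbered 6 with DESeq2, 1 with limma voom and 3 in 1 fit of all libraries. They numbered 0 to 2 with each left out and 1 without libraries 16 and 24. Over all genes the liver count was 42 with DESeq2, 5 with limma voom and 21 with all libraries in 1 fit. It was 0 to 7 with each left out and 11 without libraries 16 and 24. For the difference between tissues the called members numbered 1 with DESeq2, 0 to 1 with each left out and 1 without both. Over all genes that count was 11 with DESeq2, 0 to 3 with each left out and 4 without both. Members at an unadjusted p under 0.05 numbered 28 in liver with limma voom and 9 to 22 with each library left out, lowest without WT 19. Over all genes it was 1148 of 14591 with limma voom and 447 to 903 with each left out. Between wild-type tissues 31 members were called with a filter of 1 CPM, which tests 54, and 41 to 46 with each left out. Over all genes it was 11558 of 14720 with that filter and 12216 to 12995 with each left out. The library number as a replicate block left the counts at 0 for the difference and 47 between tissues. With this block 0 of 18549 and 13057 of 17428 genes were called. Deviations of same-numbered libraries correlated at 0.0493 to 0.311, and 6 of 9 libraries correlated best with their own number. Numbers 14, 15 and 16 did not, and number 16 had the lowest value, 0.0493, against 0.171 with another number. The cause of the other changes was not tested. Members below about 1 CPM rest on few counts.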
